A study of Homo sapiens with 16 samples.

Results

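Condensins and type II topoisomerases are the enzymes that shape and untangle chromosomes, and their transcripts were followed here as 10 genes chosen by symbol from the 63653 genes in the deposited tables: SMC2, SMC4, NCAPD2, NCAPG, NCAPH, NCAPD3, NCAPG2, NCAPH2, TOP2A and TOP2B. All 10 were found and all 10 were among the 12846 genes tested. The RNA was that of HCT116 cells, a long-established line of human colon cancer, in 4 groups of 2 libraries, each library sequenced in 2 runs. The inhibitor group received 0.5 µM BIX 01294, a small molecule that blocks the histone H3 lysine 9 methyltransferase G9a (EHMT2), for 72 h. The siRNA group received 10 nM of a small interfering RNA against G9a with the lipid reagent Lipofectamine RNAiMAX for 72 h. There is a separate control group for each treatment, and the sources used here do not say what the controls received. Both arms use 1 cell line, so the values describe HCT116 alone. A p-value here reflects the spread between libraries of the same group, pooled over the 4 groups and moderated by the spread of other genes. Separate cultures are not named in the labels, so that spread may be technical only. By its title, the series asks how methylation of histone H3 lysine 9 bears on transcription and on chromosome folding.

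Condensins are ring-shaped motors that extrude loops of DNA and compact chromosomes for mitosis. SMC2 and SMC4 form the shared core, NCAPD2, NCAPG and NCAPH complete condensin I, and NCAPD3, NCAPG2 and NCAPH2 complete condensin II. Condensin II is in the nucleus throughout interphase, whereas condensin I meets the chromosomes once the nuclear envelope breaks down. Topoisomerase II passes one DNA double helix through another. TOP2A is the form of dividing cells, needed to part sister chromatids, and TOP2B is also made in cells that do not divide.

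Genes whose transcripts peak in G2 and mitosis often carry a CCAAT box, which the factor NF-Y binds, and a cell cycle genes homology region (CHR). Promoters are shown for the pair of subunits that differed most between groups (NCAPD2 and NCAPH), for the 2 condensin II subunits that were lower in the same comparisons (NCAPD3 and NCAPG2) and for TOP2A, which had another pattern. Each is the 250 bases before a RefSeq transcription start in GRCh38.p14, read 5′ to 3′ on the gene's strand, with every CCAAT box (CCAAT on either strand) and CHR (TTTGAA or TTCGAA on either strand) in capitals.
NCAPD2, chr12:6493852-6494101, plus strand: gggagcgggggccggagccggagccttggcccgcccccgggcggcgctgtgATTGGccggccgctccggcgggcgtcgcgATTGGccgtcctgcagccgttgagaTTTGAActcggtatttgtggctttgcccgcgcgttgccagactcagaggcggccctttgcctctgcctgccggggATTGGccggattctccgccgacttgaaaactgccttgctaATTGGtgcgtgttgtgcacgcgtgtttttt
NCAPH, chr2:96335516-96335765, plus strand: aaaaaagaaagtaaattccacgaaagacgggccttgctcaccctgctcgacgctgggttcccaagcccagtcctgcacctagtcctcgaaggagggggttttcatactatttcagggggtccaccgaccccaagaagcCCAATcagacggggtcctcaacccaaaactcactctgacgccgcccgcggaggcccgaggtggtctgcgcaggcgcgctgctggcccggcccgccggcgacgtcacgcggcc
NCAPD3, second RefSeq start, chr11:134223968-134224217, minus strand: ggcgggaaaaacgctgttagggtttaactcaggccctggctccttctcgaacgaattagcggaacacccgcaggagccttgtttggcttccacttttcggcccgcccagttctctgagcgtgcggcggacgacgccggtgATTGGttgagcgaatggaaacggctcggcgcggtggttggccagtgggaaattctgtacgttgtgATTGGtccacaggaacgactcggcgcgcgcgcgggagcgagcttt
NCAPG2, chr7:158704805-158705054, minus strand: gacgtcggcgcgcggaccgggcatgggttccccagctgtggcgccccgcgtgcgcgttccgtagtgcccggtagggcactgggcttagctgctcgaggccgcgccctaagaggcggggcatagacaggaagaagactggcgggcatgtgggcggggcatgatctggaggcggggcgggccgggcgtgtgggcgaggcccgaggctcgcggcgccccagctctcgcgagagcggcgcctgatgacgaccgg
TOP2A, chr17:40417897-40418146, minus strand: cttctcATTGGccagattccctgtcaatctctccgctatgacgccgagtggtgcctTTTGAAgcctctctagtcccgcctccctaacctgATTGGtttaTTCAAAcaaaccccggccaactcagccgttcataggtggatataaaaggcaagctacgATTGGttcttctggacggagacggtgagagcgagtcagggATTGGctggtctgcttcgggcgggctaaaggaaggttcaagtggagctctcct
The NCAPD2 window held 4 CCAAT boxes, at 199, 170, 70 and 30 bases before the start, and 1 CHR at 145. TOP2A also had 4 CCAAT boxes, at 244, 160, 93 and 53 bases, with 2 CHR matches at 194 and 151. NCAPH had 1 CCAAT box at 112 bases and no CHR, and NCAPD3 had 2 CCAAT boxes at 110 and 45 bases of the start shown. The window of its other RefSeq start had neither motif, and nor did that of NCAPG2. Of 35116 RefSeq windows of this length, 32% had at least 1 CCAAT box, 0.874% had at least 4, and 14.3% had a CHR. RefSeq windows were found for 9 of the 10 genes, in 13 entries, as 4 genes had 2 each. Counted by gene, 5 had a CCAAT box and 5 a CHR in at least 1 entry. These counts are per gene and the shares above are per window, so they are not directly comparable. These are matches of letters, and the windows of NCAPD2 and TOP2A were alike in them. The part of these motifs in the values below was not tested.

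The values are FPKM, fragments per kilobase of transcript, relative to all mapped fragments of a run, which allows levels to be compared between genes. They were averaged over the 2 runs of a library and scaled between libraries, and are given below as scaled FPKM with the mean ± SD of a group (n = 2). The files hold no read counts. Relative depth was therefore inferred from the confidence bounds deposited with the FPKM, over genes with about 1 implied fragment. With run 1 of siRNA control replicate 1 as the unit, it was between 0.298 and 1.02 per run. By this estimate inhibitor control replicate 2 and siRNA control replicate 2 were the shallowest libraries. EHMT2, the target of the siRNA, was at 15.9 and 17.8 in the siRNA controls and at 4.68 and 4.54 with the siRNA, a log2 difference of -1.67 ± 0.09 (SE, limma adjusted p = 0.000268), in the direction of the labels. Libraries of the inhibitor controls were set off from all others: r between them was 0.993, against 0.957 to 0.974 between them and the remaining 6 libraries, while r among those 6 was 0.985 to 0.995 (log2 values over the genes tested). They also had the most MALAT1, a nuclear noncoding RNA (189 to 230 scaled FPKM against 55.4 to 78.4 elsewhere), and the least of RNA28S5, a ribosomal RNA (40.8 to 210 against 1045 to 18918). Their part in the results below was not tested, and each result that rests on them is set beside one that does not. Of 9 epithelial markers, 5 were above 1 in every library, with EPCAM between 73.4 and 95.3, whereas CEACAM5 was listed at 0 and CDH1 was at 0.623 to 2.02. The summed epithelial level was 765 to 775 in the inhibitor controls, 708 to 724 with the inhibitor, 649.7 to 650.1 in the siRNA controls and 653 to 666 with the siRNA. The 9 fibroblast markers summed to between 1.75 and 3.76, with LUM and FAP at 0, and the 6 blood and endothelial markers to between 0.329 and 0.721, with PECAM1 and HBB at 0.

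All 10 genes were well expressed, with mean levels between the 51.6th (SMC2) and the 91.1st percentile (NCAPG) of the genes tested. NCAPD2 was the most abundant of the 10 in the inhibitor controls (67.6 scaled FPKM), where it lay above SMC4 (56.7), TOP2A (55.6) and NCAPG (55.1). TOP2A overlapped each of the other two in its libraries, whereas SMC4 and NCAPG did not overlap. In the other 3 groups NCAPD2 was the 5th, and NCAPG came first at 50.5 to 62.1. SMC2 was last in all 4 groups, at 7.64 to 11.3, although it pairs with SMC4 in every condensin ring. NCAPH and NCAPG2 came next to last, and their libraries overlapped in the inhibitor and siRNA groups.

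**Figure D1:**
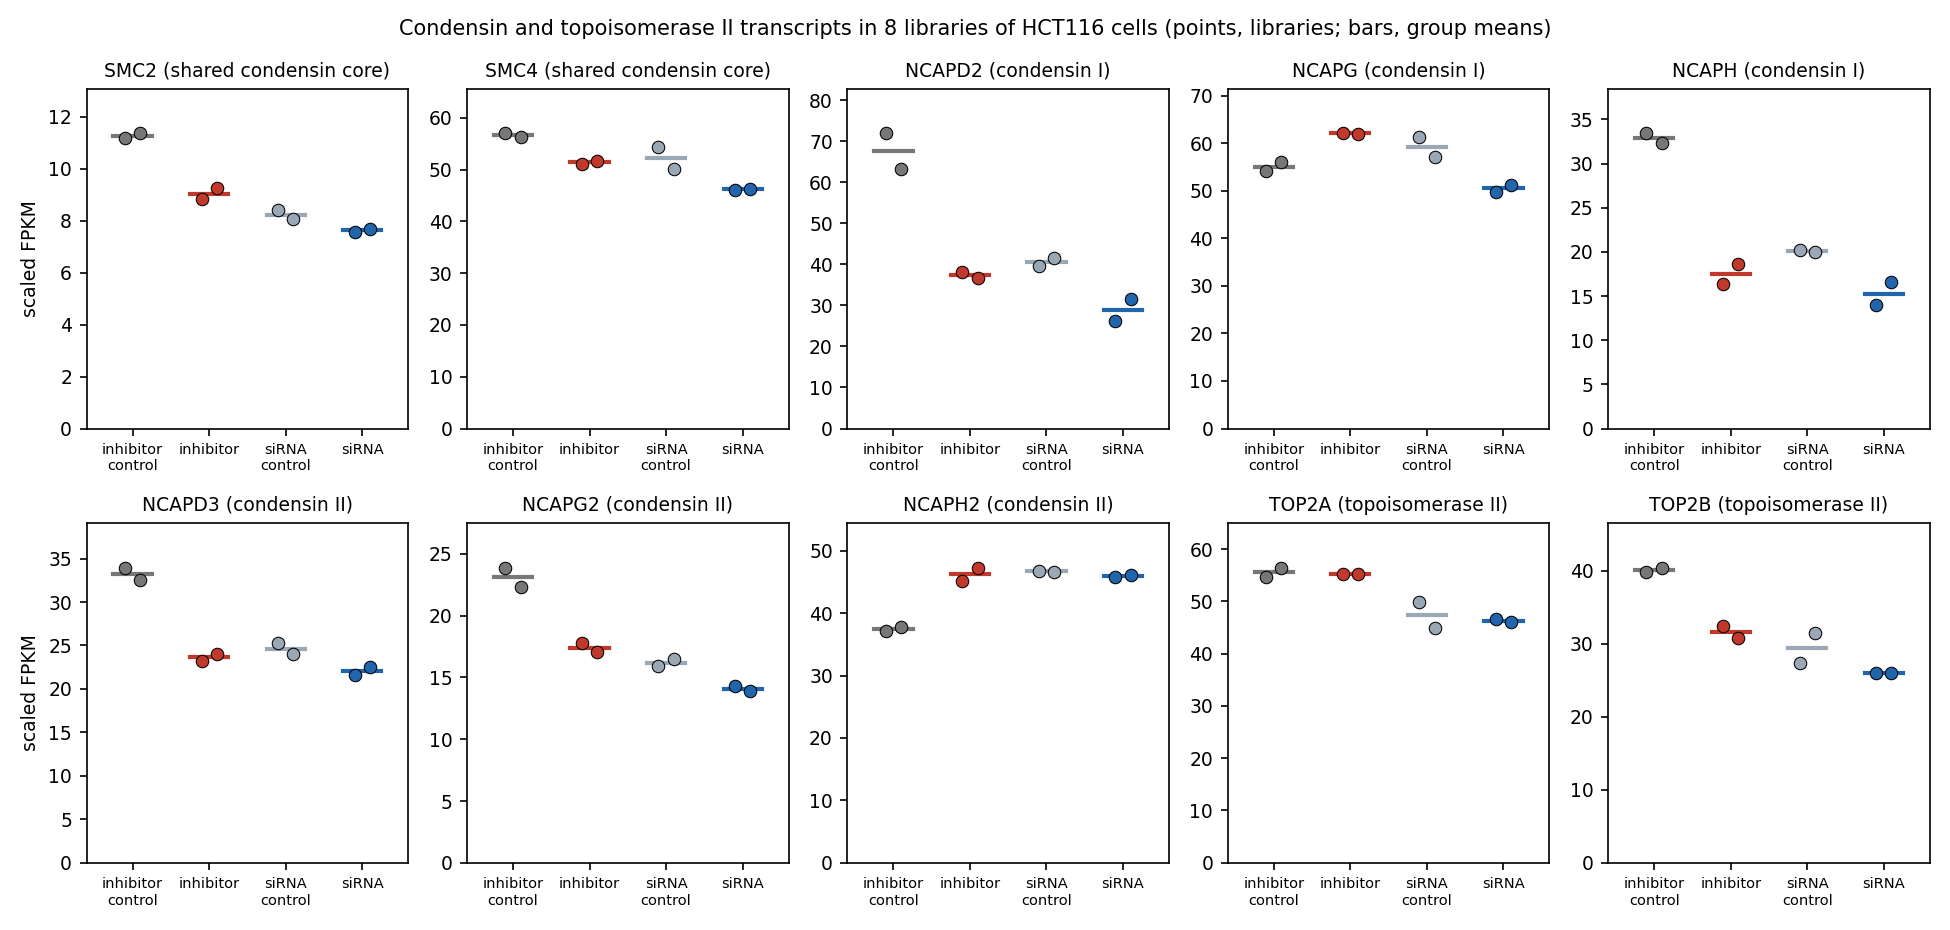
Scaled FPKM (vertical axis, from 0) of the 10 genes in the 4 groups, with 1 point per library and a bar at the group mean. NCAPD2 and NCAPH were highest in both inhibitor control libraries and lowest with the siRNA, NCAPH2 was lowest in the inhibitor controls, and TOP2A was near 55 in both groups of the inhibitor arm and below 50 in all 4 libraries of the siRNA arm.

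With the inhibitor, 8 of the 10 genes changed against the inhibitor controls: 6 fell and 2 rose. In the same fit 36.5% of all genes tested were called, 17.7% of them as higher and 18.7% as lower. The median log2 difference of the 10 was -0.31, beside 0.01 for all genes. The 2 groups of libraries did not overlap for 9 of the 10 (7 lower, 2 higher), as for 71.5% of all genes (35.2% lower, 36.3% higher). In RNA from whole cultures, fewer cells in G2 and mitosis and less of a transcript per cell cannot be told apart. Of 23 other G2 and mitosis genes, 7 rose and 5 fell (52.2% called), with a median of 0.05, and their part in the condensin values was not tested. With FPKM as deposited, unscaled between libraries, 5 of the 10 were called, all lower, beside 3112 of the 12846 genes tested. Of all genes called, 34.8% were then higher instead of 48.6%.

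With the siRNA, only NCAPD2 passed the threshold among the 10, and it fell. Over all genes 2.13% were called, 0.802% as higher and 1.32% as lower. All 10 log2 differences were negative, with a median of -0.17 beside -0.01 for all genes. Of the 10, 7 had an unadjusted limma p under 0.05, as did 2670 of the 12846 genes tested. For 9 of the 10, both siRNA libraries lay below both siRNA controls, the exception being TOP2A. Over all genes the libraries did not overlap for 49.7%, with 25.9% lower and 23.8% higher. Inhibitor controls enter here only through scaling, the filter and the shared estimate of the spread, and NCAPD2 was still the 1 of the 10 called with both of them left out, an alternative chosen after seeing the data. Of all genes called with the siRNA, 37.7% were higher, and 14.9% with FPKM as deposited.

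The 2 control groups also differed from each other, in 8 of the 10 genes. Between siRNA controls and inhibitor controls, 7 of the 10 were lower and 1 higher in the siRNA controls, with a median of -0.41 beside 0.01, and 38.3% of all genes were called (19.2% higher, 19% lower). None of the 10 overlapped between these groups (8 lower, 2 higher), as for 69.6% of all genes (34.4% lower, 35.3% higher). With FPKM as deposited 7 were called, all lower, beside 3598 of the 12846 genes tested. Of all genes called, 18% were then higher instead of 50.3%. This comparison and that of the inhibitor share the inhibitor control libraries, so their values are given side by side for each gene and not as separate evidence. Inhibitor libraries set against siRNA controls gave 0 calls among the 10 (limma; 1 at an unadjusted p under 0.05, TOP2A) and 5 calls, 0.0389%, among all genes (0.0311% higher, 0.00778% lower, and 1599 genes at an unadjusted p under 0.05). Libraries did not overlap for 6 of the 10 (4 higher, 2 lower), beside 45.9% of all genes (21.5% higher, 24.4% lower). Whether those groups also differ in delivery is not known, since the treatment of the controls is not stated.

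**Figure D2:**
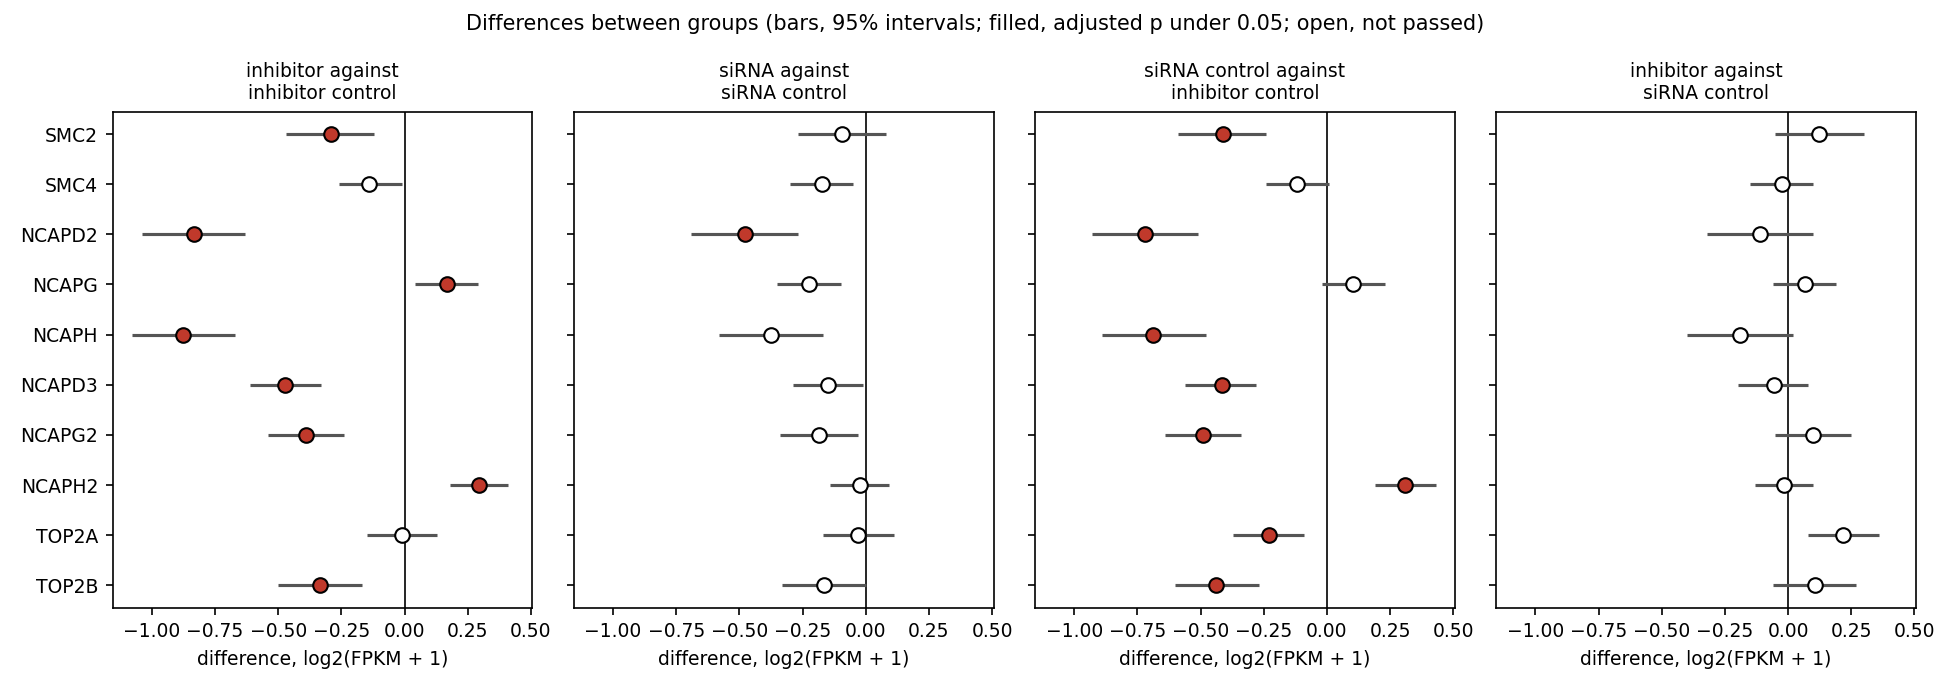
Differences on the log2(FPKM + 1) scale (horizontal axis) for each of the 10 genes in 4 comparisons, with 95% intervals from limma and filled points where the adjusted p was under 0.05. Filled points number 8, 1, 8 and 0 from left to right, and the panels with 8 share the inhibitor control libraries.

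In condensin I, NCAPD2 and NCAPH fell together with the inhibitor, their mean levels by 44.6% and 46.8%, while NCAPG, the remaining subunit, did not fall. NCAPD2 (ENSG00000010292, chromosome 12, 6602522 to 6641121 in hg19), the HEAT-repeat subunit that targets condensin I to chromosomes, was at 71.9 and 63.3 scaled FPKM in the inhibitor controls, 38.2 and 36.8 with the inhibitor, 39.5 and 41.6 in the siRNA controls, and 26.3 and 31.6 with the siRNA. The inhibitor controls were the highest 2 of the 8 libraries and the siRNA libraries the lowest 2, and no groups overlapped. The mean went from 67.6 ± 6.09 to 37.5 ± 0.981 with the inhibitor, a log2 difference of -0.83 ± 0.09 (SE, limma adjusted p = 0.000274), which stayed past the threshold in all 18 alternatives. With the siRNA it went from 40.6 ± 1.53 to 28.9 ± 3.76, or -0.48 ± 0.09 (limma adjusted p = 0.0414). That siRNA call ended in 12 of 19 alternatives, with adjusted p between 0.0352 and 0.244. It ended without inhibitor replicate 1 (0.0749) or 2 (0.0747), siRNA control replicate 1 (0.057) or 2 (0.244), or siRNA replicate 1 (-0.35, adjusted p = 0.156), with quantile normalization (0.0501), and with either run alone.

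NCAPH (ENSG00000121152, chromosome 2, 97001525 to 97039583), the kleisin that closes the condensin I ring, was at 33.4 and 32.4 in the inhibitor controls, 16.4 and 18.6 with the inhibitor, 20.2 and 19.9 in the siRNA controls, and 13.9 and 16.6 with the siRNA. The inhibitor controls were again the highest 2 libraries, and siRNA replicate 2 reached into the range of the inhibitor libraries. It fell by 0.88 ± 0.09 on the log2 scale with the inhibitor (SE, limma adjusted p = 0.000215), in all 18 alternatives too. The siRNA difference was -0.38 ± 0.09 and did not pass (limma adjusted p = 0.0677). Between the control groups the log2 differences were -0.72 for NCAPD2 (limma adjusted p = 0.000479) and -0.69 for NCAPH (0.000575), and between inhibitor libraries and siRNA controls they were -0.11 (0.646) and -0.19 (0.431).

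NCAPG (ENSG00000109805, chromosome 4, 17812525 to 17846485), the other HEAT-repeat subunit, which binds DNA together with NCAPH, was at 54.2 and 56.0 in the inhibitor controls, 62.1 and 62.0 with the inhibitor, 61.3 and 57.1 in the siRNA controls, and 49.7 and 51.3 with the siRNA. Inhibitor libraries were the highest and siRNA libraries the lowest, so the 2 treatments lay on opposite sides of their own controls. The rise with the inhibitor was 0.17 ± 0.06 (SE, limma adjusted p = 0.0392). It rests on every library of both groups: leaving out inhibitor control replicate 1 or 2, or inhibitor replicate 1 or 2, gave adjusted p of 0.173, 0.0774, 0.139 and 0.145, and unscaled FPKM gave 0.324. With the siRNA the difference was -0.22 ± 0.06 (limma adjusted p = 0.0682).

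Within each library, the ratios of these subunits do not depend on scaling. NCAPD2 to NCAPG was 1.33 and 1.13 in the inhibitor controls, 0.615 and 0.593 with the inhibitor, 0.644 and 0.729 in the siRNA controls, and 0.528 and 0.615 with the siRNA. NCAPH to NCAPG was 0.617 and 0.578, then 0.264 and 0.3, 0.329 and 0.349, and 0.28 and 0.324 in the same order. Both ratios separated the inhibitor controls from the other 6 libraries, and among those 6 the groups lay close together or overlapped. NCAPD2 to NCAPH, by contrast, stayed between 1.88 and 2.33 in all 8 libraries while NCAPD2 itself ran from 26.3 to 71.9.

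With either treatment the shared core moved less than NCAPD2 and NCAPH, whereas SMC2 differed by more than NCAPG with the inhibitor. These contrasts were not tested. SMC2 (ENSG00000136824, chromosome 9, 106856541 to 106903698), one of the 2 ATPases of the ring, was at 11.2 and 11.4 in the inhibitor controls, 8.82 and 9.25 with the inhibitor, 8.40 and 8.06 in the siRNA controls, and 7.58 and 7.70 with the siRNA. The groups fell in that order from high to low, with no overlap. With the inhibitor SMC2 fell by 0.29 ± 0.08 on the log2 scale (SE, limma adjusted p = 0.0174), a call lost without inhibitor control replicate 1 (0.0654) or 2 (0.0782), without inhibitor replicate 1 (0.104) or 2 (0.0613), and with unscaled FPKM (0.0744). Its siRNA difference was -0.10 ± 0.08 (0.521), and its difference between control groups was -0.41 ± 0.08 (limma adjusted p = 0.00322).

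SMC4 (ENSG00000113810, chromosome 3, 160117062 to 160152750), the partner ATPase, was at 57.0 and 56.4 in the inhibitor controls, 51.1 and 51.7 with the inhibitor, 54.4 and 50.2 in the siRNA controls, and 46.1 and 46.3 with the siRNA. Both siRNA libraries were below the rest, and the inhibitor libraries lay within the range of the siRNA controls. Neither difference passed, at -0.14 ± 0.06 with the inhibitor (limma adjusted p = 0.0784) and -0.17 ± 0.06 with the siRNA (0.123). The inhibitor difference varied with the processing. It was 0.05 from the first run alone and -0.32 from the second alone, where it passed (limma adjusted p = 0.00644). Quantile normalization also brought it past the threshold (-0.17, adjusted p = 0.0349). SMC4 to SMC2 was 5.10 and 4.96 in the inhibitor controls, 5.80 and 5.59 with the inhibitor, 6.48 and 6.23 in the siRNA controls, and 6.08 and 6.02 with the siRNA. Transcripts of the 2 partners were therefore far from equal in all 8 libraries, and most unequal in the siRNA arm.

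**Figure D3:**
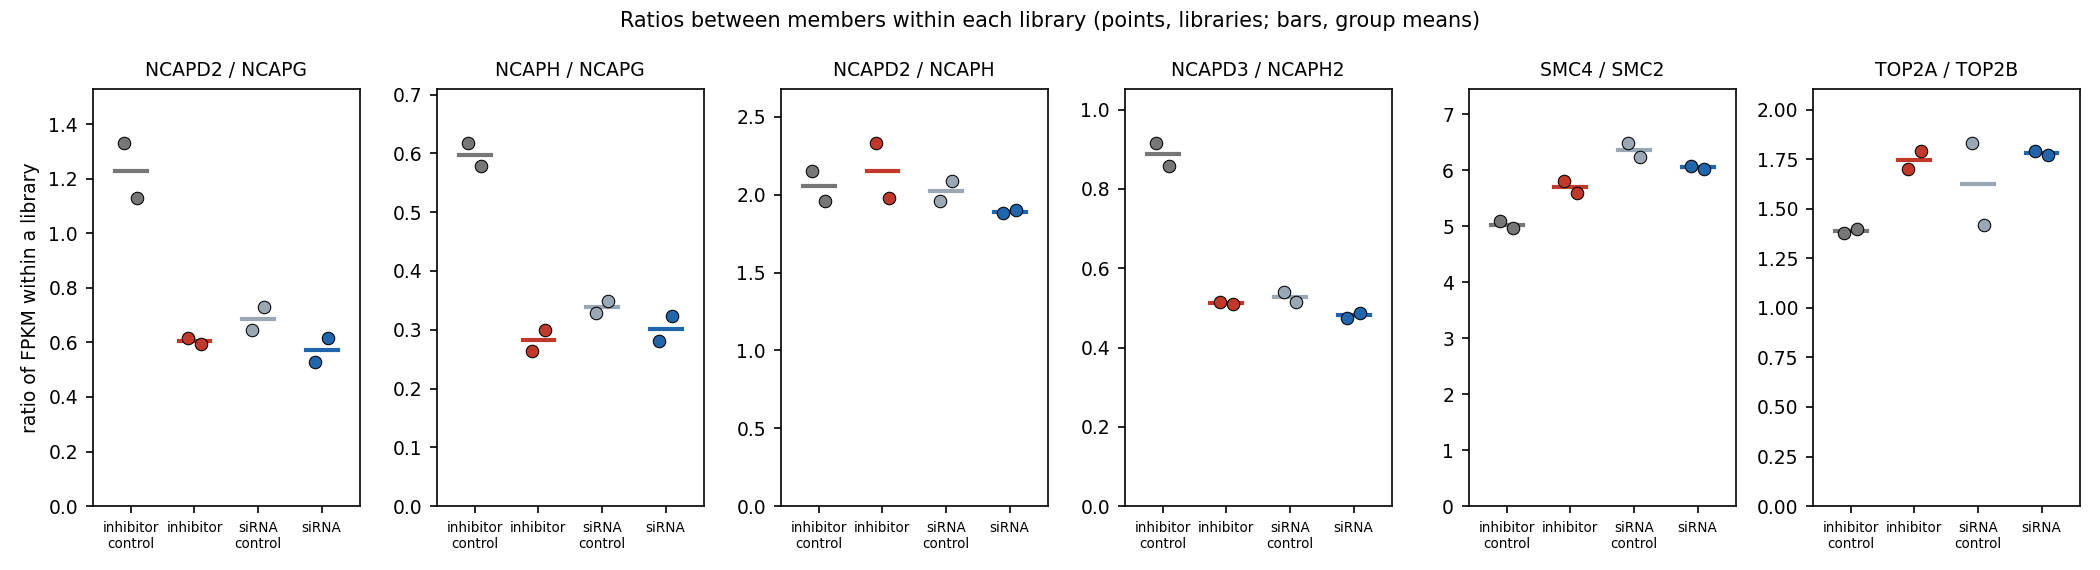
Ratios of FPKM between pairs of genes within each library (vertical axis, from 0), with 1 point per library and a bar at the group mean. NCAPD2 to NCAPG, NCAPH to NCAPG and NCAPD3 to NCAPH2 were highest in both inhibitor controls, while NCAPD2 to NCAPH stayed between 1.88 and 2.33.

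Condensin II split in a similar way, with NCAPD3 and NCAPG2 lower and the kleisin NCAPH2 higher in the 6 other libraries than in the inhibitor controls. NCAPD3 (ENSG00000151503, chromosome 11, 134020014 to 134095348), the HEAT-repeat counterpart of NCAPD2, was at 34.0 and 32.5 in the inhibitor controls, 23.2 and 24.1 with the inhibitor, 25.3 and 24.0 in the siRNA controls, and 21.7 and 22.5 with the siRNA. The inhibitor controls were well above the rest and the siRNA libraries lowest, while the inhibitor libraries overlapped the siRNA controls. NCAPD3 fell by 0.47 ± 0.06 with the inhibitor (SE, limma adjusted p = 0.000603) in all 18 alternatives, and differed by -0.15 ± 0.06 with the siRNA (0.209) and by -0.42 ± 0.06 between the control groups (limma adjusted p = 0.00101).

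NCAPG2 (ENSG00000146918, chromosome 7, 158424003 to 158497520), the counterpart of NCAPG, was at 23.9 and 22.4 in the inhibitor controls, 17.8 and 17.1 with the inhibitor, 15.9 and 16.5 in the siRNA controls, and 14.3 and 13.9 with the siRNA. The groups fell in that order without overlap. Its fall with the inhibitor, 0.39 ± 0.07 on the log2 scale (SE, limma adjusted p = 0.00232), held in all 18 alternatives. The siRNA difference was -0.19 ± 0.07 (0.165), and the difference between the control groups was -0.49 ± 0.07 (limma adjusted p = 0.000694).

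NCAPH2 (ENSG00000025770, chromosome 22, 50946645 to 50961901), the kleisin of condensin II, was at 37.2 and 37.8 in the inhibitor controls, 45.1 and 47.3 with the inhibitor, 46.8 and 46.6 in the siRNA controls, and 45.7 and 46.2 with the siRNA. It was low in the inhibitor controls and level in the other 6 libraries. It rose by 0.29 ± 0.05 with the inhibitor (SE, limma adjusted p = 0.00256) and was 0.31 ± 0.05 higher in the siRNA controls than in the inhibitor controls (0.00186), and both calls ended with unscaled FPKM (adjusted p of 0.0711 and 0.244). The siRNA difference was -0.02, with a 95% interval from -0.14 to 0.09 (limma adjusted p = 0.84). NCAPD3 to NCAPH2 within a library was 0.915 and 0.859 in the inhibitor controls and between 0.474 and 0.540 in the other 6.

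The summed level of the 3 condensin I subunits over that of the 3 condensin II subunits was 1.68 and 1.64 in the inhibitor controls, 1.35 and 1.33 with the inhibitor, 1.38 and 1.36 in the siRNA controls, and 1.1 and 1.2 with the siRNA. By this sum, to which NCAPG adds most in 6 of the 8 libraries, condensin I was above condensin II throughout, by least in the siRNA libraries, which did not overlap any other group. The ratio was not tested, and pairs of counterparts differed in it. NCAPD2 to NCAPD3 was 2.12 and 1.95, then 1.64 and 1.53, 1.56 and 1.73, and 1.21 and 1.40 in the same order of groups. NCAPH to NCAPH2 was 0.9 and 0.855, then 0.363 and 0.393, 0.431 and 0.428, and 0.305 and 0.360, so the kleisin of condensin II was the more abundant of the 2 in every library.

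The 2 topoisomerase II genes parted with the inhibitor, where TOP2B was called lower and TOP2A was not. Both were called lower in the siRNA controls than in the inhibitor controls, and r between them over the 8 libraries was 0.711. TOP2A (ENSG00000131747, chromosome 17, 38544768 to 38574202) was at 54.7 and 56.5 in the inhibitor controls, 55.3 and 55.2 with the inhibitor, 49.9 and 44.9 in the siRNA controls, and 46.7 and 46.0 with the siRNA. Its level went with the arm of the study: all 4 libraries of the inhibitor arm were above all 4 of the siRNA arm, and within each arm the groups overlapped. The inhibitor difference was -0.01, with a 95% interval from -0.15 to 0.13 (limma adjusted p = 0.92), and the siRNA difference was -0.03, from -0.17 to 0.11 (0.823). Both intervals exclude a fall of the size seen for NCAPD2 in the same comparison. Between the control groups TOP2A was lower by 0.23 ± 0.06 in the siRNA controls (limma adjusted p = 0.0165), a call that ended without inhibitor control replicate 2 (-0.21, adjusted p = 0.084), without siRNA control replicate 2 (-0.15, 0.092), and with no filter on low values (0.0551). Inhibitor libraries differed from siRNA controls by 0.22, with a 95% interval from 0.08 to 0.36, and did not pass (limma adjusted p = 0.231).

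TOP2B (ENSG00000077097, chromosome 3, 25639475 to 25706398) was at 39.8 and 40.4 in the inhibitor controls, 32.4 and 30.8 with the inhibitor, 27.3 and 31.5 in the siRNA controls, and 26.02 and 25.99 with the siRNA. Its order was that of SMC2 and NCAPG2, highest in the inhibitor controls and lowest with the siRNA, although siRNA control replicate 2 reached the inhibitor libraries. TOP2B fell by 0.33 ± 0.07 with the inhibitor (SE, limma adjusted p = 0.00712), a call lost without inhibitor replicate 2 (-0.30, adjusted p = 0.0594). It differed by -0.17 ± 0.07 with the siRNA (0.234) and by -0.44 ± 0.07 between the control groups (limma adjusted p = 0.00175). TOP2A to TOP2B was 1.38 and 1.40 in the inhibitor controls, 1.70 and 1.79 with the inhibitor, 1.83 and 1.42 in the siRNA controls, and 1.79 and 1.77 with the siRNA. The ratio was lowest in the inhibitor controls, and siRNA control replicate 2, one of the shallowest libraries, lay next to them.

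Whether the 2 treatments differed in effect was tested as the inhibitor difference minus the siRNA difference. It passed for 4 of the 10, beside 11.8% of all genes (5.16% positive, 6.67% negative). NCAPG (0.39 ± 0.08, limma adjusted p = 0.0155) and NCAPH2 (0.32 ± 0.07, 0.0264) were positive, and NCAPH (-0.50 ± 0.13, 0.0381) and NCAPD3 (-0.32 ± 0.09, 0.0453) were negative. For NCAPD2 it was -0.35 ± 0.13 and did not pass (0.111), though it did without siRNA replicate 1 (-0.48, adjusted p = 0.0356). All of these contain the inhibitor controls. None of the 4 calls held in every alternative: NCAPG passed in 11 of 17 (adjusted p from 0.0137 to 0.122), NCAPH in 5 (0.0188 to 0.163), NCAPD3 in 4 (0.0243 to 0.754) and NCAPH2 in 5 (0.0252 to 0.2). The NCAPG call ended without inhibitor control replicate 1 (0.0525) and without inhibitor replicate 1 (0.0593) or 2 (0.0635). The calls for NCAPD3 and NCAPH2 ended without any 1 of the 8 libraries, at adjusted p from 0.0587 to 0.142 and from 0.0535 to 0.112. That for NCAPH ended without any 1 of 7 libraries, at 0.0605 to 0.126, and held without siRNA replicate 1.

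Each library was sequenced in 2 runs, and Cufflinks gave a confidence interval to each run's deposited FPKM. For the 10 genes the distance from the value to either bound was 4.63% to 18.6% of the value, with a median of 8.98%. The intervals of the 2 runs overlapped in 71 of 80 pairs. Of the 9 pairs that did not, or 11.2% beside 6.71% over all genes tested, 6 belonged to NCAPH2. NCAPH2 was higher in the second run of all 8 libraries, by a factor of 1.12 to 1.29, beside medians over all genes of 1.05 to 1.06 per library. SMC2 and NCAPH were also higher in the second run in 8 of 8 libraries, as were 12.8% of all genes, whereas TOP2A gave second to first run ratios of 0.984 to 1.07. SMC4 was higher in the second run in both inhibitor controls (59.0 to 65.5 and 51.3 to 65.3 FPKM as deposited) and lower in both inhibitor libraries (55.4 to 49.8 and 57.9 to 53.2). The NCAPH2 differences between groups kept their direction in either run alone against the inhibitor controls.

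**Figure D4:**
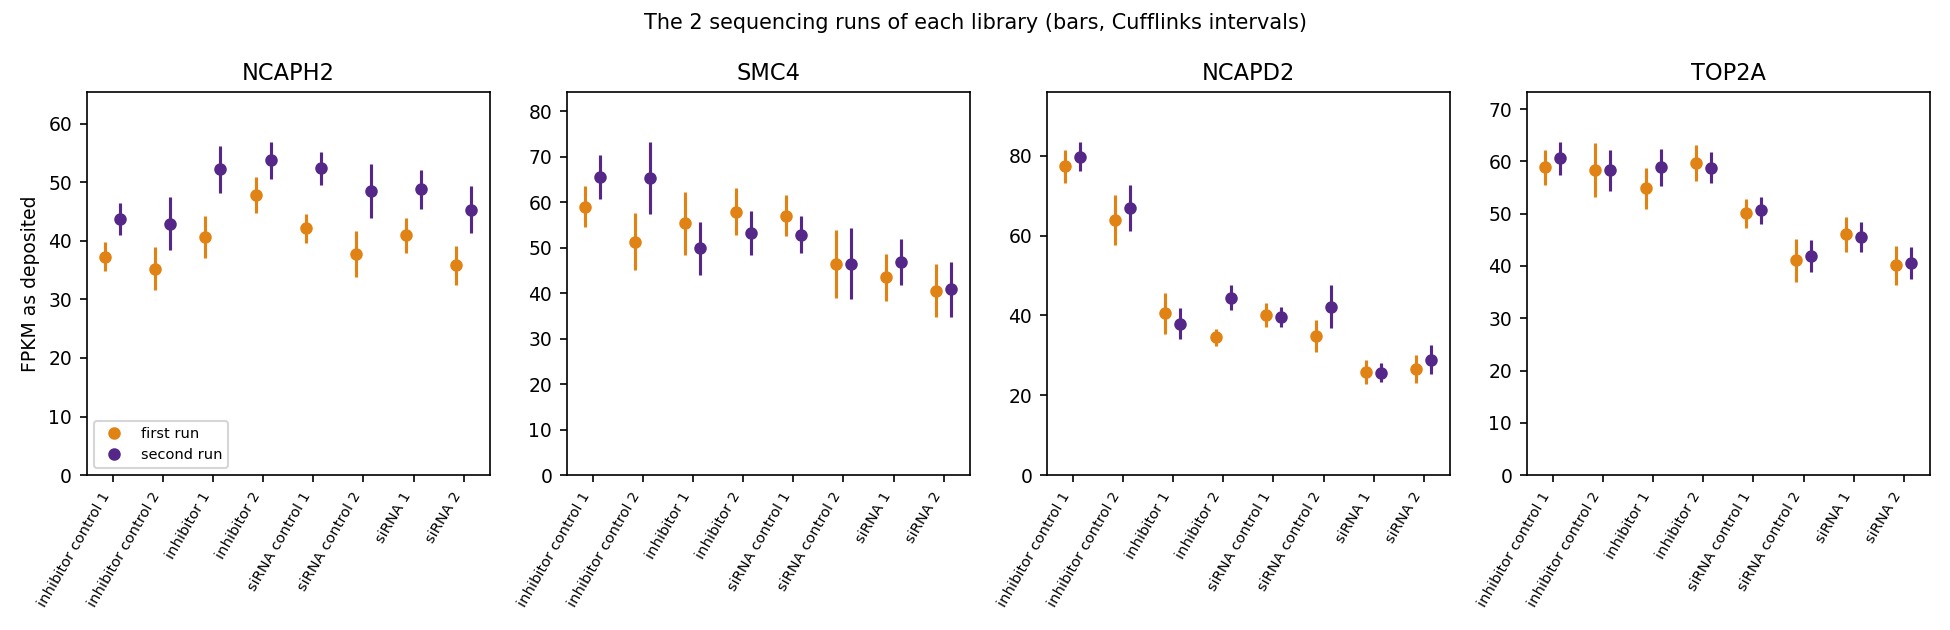
Deposited FPKM (vertical axis, from 0) of NCAPH2, SMC4, NCAPD2 and TOP2A in the first and second run of each of the 8 libraries, with the Cufflinks confidence interval of each run. The runs of NCAPH2 lie apart in all libraries and their intervals do not overlap in 6 of 8, while those of TOP2A lie close together.

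Some of these genes share their locus with others, and the sources used here do not say whether the authors' counting used the strand. The NCAPD2 locus holds SCARNA10, a small Cajal body RNA on the same strand, which lies in none of the 60 annotated NCAPD2 exons of GENCODE 29 and was at 601 and 756 in the inhibitor controls, 958 and 1141 with the inhibitor, 605 and 744 in the siRNA controls, and 815 and 973 with the siRNA. It was thus lower in the controls of both arms, the opposite of NCAPD2. MRPL51, which overlaps the start of NCAPD2 on the other strand by 486 bases, was at 146 to 207 and lowest in the inhibitor controls. SMC4 overlaps TRIM59 (18.8 to 26.9) and IFT80 (10.2 to 17.2) on the other strand and hosts the microRNAs MIR15B and MIR16-2, both listed at 0. NCAPG overlaps LCORL, and NCAPD3 overlaps VPS26B and JAM3, all on the other strand. The part of these neighbours in the member values was not tested. No other gene in the files overlapped SMC2, NCAPH, NCAPG2 or NCAPH2.

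Among 28 tested regulators of condensin and other proteins of the chromosome axis, 7 rose and 12 fell with the inhibitor (67.9% called beside 36.5% of all genes, median -0.06). With the siRNA 1 of them fell, or 3.57% beside 2.13% of all genes called. RCC1, the exchange factor of the GTPase Ran on chromatin, fell from 76.9 ± 2.76 to 46.9 ± 1.33 with the inhibitor (-0.70 ± 0.06, limma adjusted p = 5.03e-05) and from 48.7 ± 1.45 to 39.7 ± 0.814 with the siRNA (-0.29 ± 0.06, 0.0414). PLK1, a mitotic kinase that phosphorylates condensin II, fell from 42.8 ± 1.59 to 22.0 ± 1.44 with the inhibitor (-0.93 ± 0.09, limma adjusted p = 0.000177). CDK1, the kinase that drives mitosis and activates condensin I, rose from 89.8 ± 0.126 to 138 ± 0.427 (0.61 ± 0.06, 0.0002), as did its cyclin CCNA2 (0.51 ± 0.06, limma adjusted p = 0.000317). PLK1 and CDK1, kinases that both act on condensins, thus moved in opposite directions against the same controls. None of the 28 passed between inhibitor libraries and siRNA controls (limma, 4 at an unadjusted p under 0.05), the smallest adjusted p being 0.196, for CCNA2.

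Of 19 other topoisomerases and genes that repair topoisomerase lesions, 4 rose and 5 fell with the inhibitor (47.4% called beside 36.5% of all genes, median 0.13) and none passed with the siRNA (limma, 3 at an unadjusted p under 0.05). TOP1, which relaxes supercoils by cutting 1 strand, fell from 20.6 ± 1.64 to 7.85 ± 0.061 (-1.28 ± 0.09, limma adjusted p = 3.42e-05). TDP2, which removes topoisomerase II from broken DNA ends, fell from 14.7 ± 1.02 to 7.52 ± 0.441 (-0.88 ± 0.09, 0.000154), and the mitochondrial TOP1MT fell by 1.11 ± 0.11 (limma adjusted p = 0.000177). TOP1 and TOP2A, which both relieve torsion in growing cells, thus differed in this comparison, a contrast that was not tested. In the siRNA controls TOP1 was already at 9.17 ± 1.06, and against these the inhibitor difference was -0.20 ± 0.09 (0.427).

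The other SMC complexes, cohesin and SMC5/6 with their loaders, had 3 genes higher and 3 lower of 16 with the inhibitor (37.5% called beside 36.5% of all genes, median -0.03), and none passed with the siRNA (limma, 4 at an unadjusted p under 0.05). The 2 core ATPases of cohesin fell with the inhibitor: SMC3 from 36.6 ± 0.256 to 20.8 ± 1.03 (-0.79 ± 0.06, limma adjusted p = 5.57e-05) and SMC1A from 42.3 ± 0.395 to 19.6 ± 2.41 (-1.08 ± 0.11, 0.000228). NIPBL, the cohesin loader, fell by 0.80 ± 0.11 (limma adjusted p = 0.000839). With the siRNA, SMC1A differed by -0.49 ± 0.11 and SMC3 by -0.27 ± 0.06, both at an adjusted p of 0.062. The cohesin ATPases thus had larger differences than SMC2 and SMC4 in both comparisons, a contrast that was not tested. The siRNA controls were already at 19.4 ± 0.388 for SMC3 and 18.8 ± 1.23 for SMC1A, with means no higher than those with the inhibitor, and none of the 16 passed between those groups (limma, 3 at an unadjusted p under 0.05).

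Among 23 G2 and mitosis genes, TACC3, which stabilizes spindle fibres, fell by 1.90 ± 0.12 with the inhibitor (limma adjusted p = 2.05e-05), and the transcription factors MYBL2 (-1.15 ± 0.12, 0.00023) and FOXM1 (-0.68 ± 0.11, 0.00175) fell as well. TTK, the spindle checkpoint kinase, rose by 0.54 ± 0.06 (limma adjusted p = 0.0002). With the siRNA, 1 of the 23 passed (4.35% beside 2.13% of all genes). This was MYBL2, which fell from 20.2 ± 2.64 to 12.2 ± 1.85 (-0.68 ± 0.12, limma adjusted p = 0.0347). Of 21 genes of G1/S and replication, 5 rose and 6 fell with the inhibitor (52.4% called beside 36.5% of all genes, median 0.02). With the siRNA 2 of the 21 fell (9.52% beside 2.13% of all genes). They were RRM2, a subunit of ribonucleotide reductase (-0.39 ± 0.06, limma adjusted p = 0.0266), and TK1, thymidine kinase (-0.37 ± 0.07, 0.0386). RPA1, the large subunit of the single-strand binding protein, fell from 42.9 ± 5.93 to 8.17 ± 0.134 with the inhibitor (-2.25 ± 0.13, limma adjusted p = 1.06e-05). No gene of either list passed between inhibitor libraries and siRNA controls (limma, 3 of 23 and 5 of 21 at an unadjusted p under 0.05).

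Over the 8 libraries, the genes whose log2 values were most like those of TOP2A were DNAH11 (Pearson r = 0.982), HAT1 (0.977) and HMGB2 (0.976), and without the inhibitor controls their r over the other 6 libraries was 0.977, 0.981 and 0.968. TOP2B was most like CWC25 (0.987), CYTH2 (0.987) and RAB11FIP3 (0.987), and SMC2 was like SYNCRIP (0.993) and KRT8 (0.992). These are among the highest of 12846 correlations for each gene, over 8 libraries that share groups, and are given as descriptions.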

How the data were processed

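RNA-seq of HCT116 cells was analysed from 16 sequencing runs of 8 libraries. A stranded total RNA kit was used, per the labels' protocols. The authors deposited FPKM per gene with confidence bounds from Cufflinks, per the file headers. STAR 2.3.0e, SAMtools 0.1.19 and hg19 are named per the submitters' processing notes. The sources used here do not give the Cufflinks version, annotation or strand setting. FPKM is relative to a library total, of which the 6 highest values took 48.55% to 55.76%.

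Of the 2 numbers in each label, the first was taken as the library and the second as its run, and runs were averaged per library. Each file has 63784 entries, of which 131 repeated an identifier and were summed. The genes kept had a mean FPKM of 1 or more and a locus of 300 bases or more (12846 genes; MT-RNR2, which Cufflinks marked as not reliably estimated in all 16 runs, was left out). Scaling between libraries used median-of-ratios factors of 0.878 to 1.09. Differences of log2(FPKM + 1) from the deposited values were tested two-sided with limma 3.58.1 in R 4.3.3 (trend, all 4 groups in 1 fit, 4 residual and 5.04 prior degrees of freedom), with Benjamini-Hochberg adjustment over all genes tested and a threshold of 0.05. They understate changes of low genes. The fit was tested on simulated data. Alternatives changed the pseudocount (to 0.1), filters, scaling, runs, block, libraries and groups in the fit. Libraries or groups left out of the fit were kept in scaling and the filter.

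Named were the 10 genes in every comparison, EHMT2, at most the 4 smallest p of each list, the 3 genes most like TOP2A, TOP2B and SMC2, and overlapping genes. An item that this rule names is not reported here. MALAT1, RNA28S5 and the cell type markers were named outside this rule. The genes, lists and tests were chosen with earlier results of these data known. Same-numbered libraries did not deviate together (correlations of -0.0978 to 0.0482), so numbers were not used as pairs. Gene coordinates are hg19 as deposited, and promoter sequences are from RefSeq in GRCh38.p14.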

Additional observations from a re-analysis of the deposited data

Results flagged for a closer look

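The inhibitor difference minus the siRNA difference (log2 scale, limma) passed the threshold for 4 of the genes followed here, beside 11.8% of all genes tested. The values were 0.39 for NCAPG, -0.50 for NCAPH, -0.32 for NCAPD3 and 0.32 for NCAPH2. None of these calls held in every alternative: NCAPG passed in 11 of 17, NCAPH in 5, NCAPD3 in 4 and NCAPH2 in 5. NCAPG was higher than its control in both inhibitor libraries and lower in both siRNA libraries. NCAPH and NCAPD3 were lower than control in all treated libraries of both arms, with larger differences in the inhibitor arm. NCAPH2 was higher than control in both inhibitor libraries and at a difference of -0.02 with the siRNA. Each value contains the inhibitor control libraries, which stood apart from the other 6, and their part in it was not tested. Groups of 2 libraries are too small to look for single outlying libraries.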

How the results depend on the processing

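Directions and calls of the 10 genes were recomputed under each alternative, 1 choice at a time. Against the inhibitor controls, 155 of 180 inhibitor values kept direction and call, 20 lost the call, 2 gained it and 3 reversed; the other comparisons kept 176 of 190 (siRNA), 172 of 180 (between controls), 180 of 190 (inhibitor against siRNA controls) and 119 of 170 (difference of effects). Where a value below moved, the cause was not tested.

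With no filter on low values, all genes called numbered 2986 (inhibitor), 5 (siRNA), 3236 (between controls), 0 (inhibitor against siRNA controls) and 245 (difference of effects), from 4686, 273, 4916, 5 and 1520, and of the 10 genes 0 were called with the siRNA and 0 for the difference of effects. With FPKM as deposited, 5 of the 10 were called with the inhibitor and 0 for the difference, with 3112 (inhibitor), 134 (siRNA), 32 (inhibitor against siRNA controls) and 738 (difference) over all genes; this moved the median gene by -0.108 between the controls. Of the genes called, 48.6% (inhibitor), 37.7% (siRNA), 50.3% (between controls) and 43.6% (difference) were higher, against 34.8%, 14.9%, 18% and 32.8% unscaled, and the siRNA share was 49.3% with quantile normalization. Unscaled values reversed NCAPG between the controls (-0.032) and, for inhibitor against siRNA controls, SMC4 (0.096), NCAPD2 (0.0069), NCAPD3 (0.059) and NCAPH2 (0.10). Quantile normalization left 0 of the 10 called with the siRNA and reversed NCAPH2 for inhibitor against siRNA controls (0.0024) and, for the difference, SMC4 (-0.0038) and TOP2A (-0.022).

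The first run alone called 3117 genes (inhibitor), 31 (siRNA), 3212 (between controls), 1 (inhibitor against siRNA controls) and 526 (difference), and the second alone 45 (siRNA), 2 (inhibitor against siRNA controls) and 717 (difference). Of the 10, either run called 0 with the siRNA and 1 for the difference. That gene was NCAPG in the first run (limma adjusted p = 0.0791 in the second) and NCAPD3 in the second (0.754 in the first). The first run reversed SMC4 (0.053 with the inhibitor, 0.031 between controls, 0.022 for inhibitor against siRNA controls), NCAPH2 (0.0045 with the siRNA, 0.029 for inhibitor against siRNA controls) and the TOP2A difference of effects (-0.0083). The second reversed TOP2A with the inhibitor (0.0024), TOP2B for inhibitor against siRNA controls (-0.019) and the SMC4 difference of effects (-0.20). The replicate block, which pairs libraries by number, left 0 of the 10 and 68 genes called with the siRNA, and the NCAPG call with the inhibitor (0.0625) and that of NCAPD3 for the difference (0.0732) ended. Short genes kept gave 0 of the 10 and 22 genes (siRNA), 12 (inhibitor against siRNA controls) and 2 of the 10 (difference). Fitting only the groups compared gave 0 of the 10 and 24 genes with the siRNA. Robust variance moderation gave 11 for inhibitor against siRNA controls. Leaving both inhibitor controls out of the fit, chosen after seeing the data, gave 151 genes (siRNA) and 11 (inhibitor against siRNA controls).

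Leaving out 1 library at a time gave between 5 and 8 of the 10 called with the inhibitor, 0 and 1 with the siRNA, 7 and 8 between controls, 0 for inhibitor against siRNA controls, and 0 and 3 for the difference. Over all genes it gave 2673 to 4775, 9 to 423, 3484 to 4853, 0 to 43 and 487 to 1482. Signs turned within these ranges: TOP2A from -0.032 to 0.013 (inhibitor), -0.10 to 0.045 (siRNA) and -0.055 to 0.095 (difference), SMC4 from -0.080 to 0.035 (inhibitor against siRNA controls) and -0.022 to 0.093 (difference), and NCAPH2 from -0.048 to 0.018 (inhibitor against siRNA controls). With 2 libraries a group and no read counts, small differences are the least certain in the shallowest libraries.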
